A study of Homo sapiens with 12 samples.

Results

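The S100 proteins are small calcium sensors with EF-hand motifs, and 10 of their genes are described here in 4 human glioblastoma lines: S100A2, S100A3, S100A4, S100A6, S100A8, S100A9, S100A10, S100A11, S100A13 and S100A16. They were chosen by their measured levels in these same libraries and taken by symbol from the deposited matrix, in which they are 10 of 31654 usable gene rows. The matrix holds 12 RNA sequencing libraries, 3 from each line. U251TR and U87TR are temozolomide-resistant lines that the submitters raised by repeated exposure to rising doses of temozolomide, the alkylating drug used against glioblastoma. U251MG and U87MG are their untreated parents. Each parent has 1 resistant line, and all 4 lines were grown in the same serum-containing medium. The labels do not say whether drug was present at harvest, nor whether replicate libraries stem from different cultures. Any spread given is thus that between these libraries and may be technical. Values are FPKM, fragments scaled by gene length and by the library's total, a scale on which genes of different length can be set side by side.

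Most S100 proteins form dimers that change shape when they bind calcium and then dock onto target proteins. Inside the cell they act on the cytoskeleton, membranes and transcription factors, and several are also released and signal through receptors such as RAGE and TLR4. S100A8 and S100A9 pair as calprotectin, a metal-binding alarm protein best known from neutrophils and monocytes. S100A10 pairs with annexin A2 at the plasma membrane, where the complex binds plasminogen. S100B is the member used as an astrocyte marker.

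The list was drawn up with the levels of these genes in these libraries known. Levels and differences of the 10 genes are therefore a description, given by their values, the standard error from the model below and whether the libraries of 2 lines overlap, with no test. Genes outside the list were tested in a limma model of log2(FPKM + 1) over the 15449 genes with at least 1 FPKM in at least 3 libraries, with Benjamini-Hochberg adjusted p-values and a threshold of 0.05. All 10 listed genes passed that filter, S100A8 and S100A9 only through the U251TR libraries, so that they had to be higher there. Genes outside the list are called where their adjusted p is under 0.05.

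The libraries had 13135 to 14122 genes at 1 FPKM or more. In U251MG, replicate 2 was the least similar library (Spearman correlations over genes 0.977 and 0.978, where replicates 1 and 3 had 0.993). In U87MG it was replicate 3 (0.983 and 0.987, where replicates 1 and 2 had 0.993). The codes in the column names of U87TR belong to a separate run of numbers, so that this run and resistance cannot be told apart in U87. Glioma markers bore out the labels only in part. VIM, CD44 and NES were at 1 FPKM or more in every library. SOX2 had 113.3 FPKM on average in U251TR and 219.8 FPKM in U251MG, but 0.203 FPKM in U87TR, and it was listed at 0 in every U87MG library. GFAP, the intermediate filament gene of astrocytes, had 396.2 FPKM on average in U251TR and 22.8 FPKM in U251MG, and 1.75 FPKM in U87TR and 0.753 FPKM in U87MG. OLIG2, a glial transcription factor gene, had 3.89 FPKM in U251TR and 3.44 FPKM in U251MG, and 0.263 FPKM in U87TR and 1.14 FPKM in U87MG. AQP4, a marker of mature astrocytes, was listed at 0 in 11 of 12 libraries.

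Taken as a group, the 10 genes made up a smaller part of the transcriptome in U251TR than in its parent and a larger part in U87TR than in its parent. They summed to 0.352%, 0.363% and 0.394% of all FPKM in the U251TR libraries, against 0.57%, 0.57% and 0.589% in the U251MG libraries. In the U87 pair the shares were 1.08%, 1.07% and 1.15% in U87TR, against 0.732%, 0.796% and 0.914% in U87MG. Neither pair of lines overlapped. In every library S100A6 was the highest of the 10, with 39.2% to 39.9% of their sum in U251TR, 50% to 51.2% in U251MG, 53.8% to 55.5% in U87TR and 59.6% to 63.2% in U87MG. Together, S100A6, S100A10 and S100A11 held 65.5% to 66.4% of the sum in U251TR and 70.6% to 72.3% in U251MG, where S100A2 was also high, and about 90% (89.5% to 90.4%) in every library of U87TR and U87MG.

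**Figure D1:**
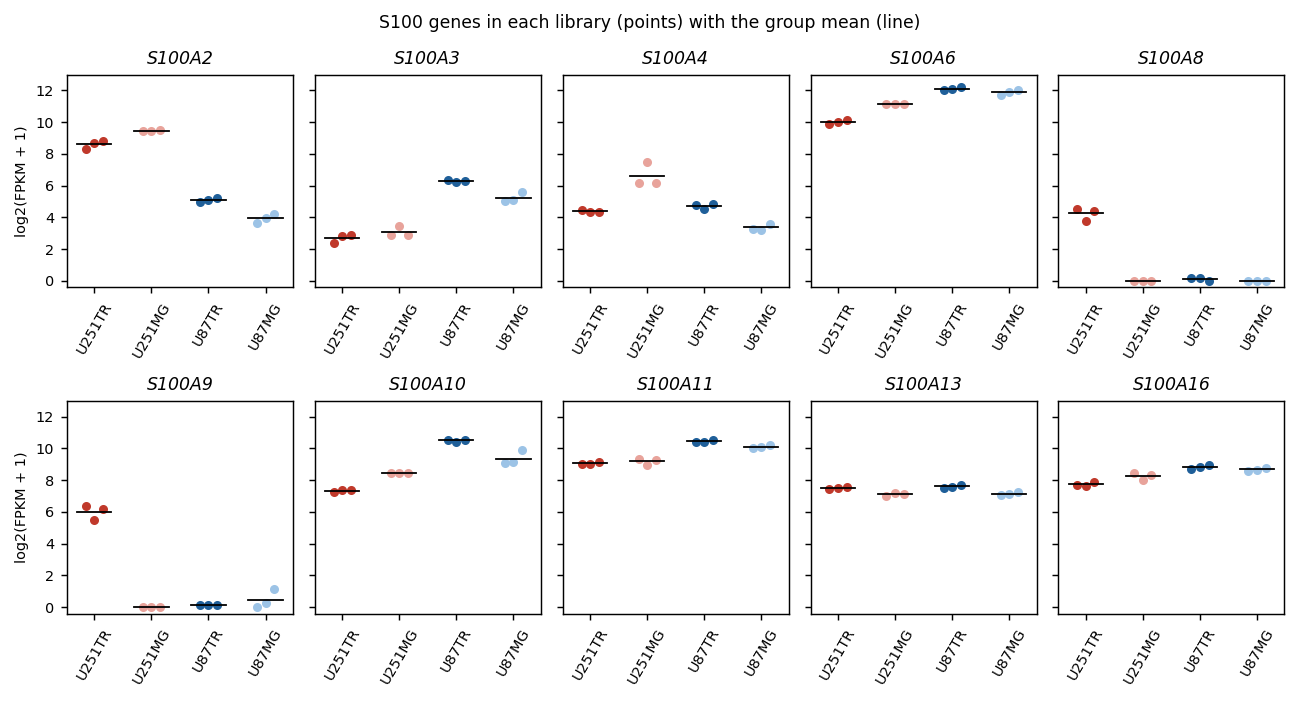
Level of each S100 gene, as log2(FPKM + 1), in the 3 libraries of U251TR, U251MG, U87TR and U87MG (points), with the mean of those values (line). S100A8 and S100A9 stand well above 0 in U251TR only, S100A2 is high in both U251 lines, and S100A4 and S100A10 are lower in U251TR than in U251MG but higher in U87TR than in U87MG.

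The calprotectin genes were present in 1 of the 4 lines. S100A8 stood at 22.3, 12.9 and 20.1 FPKM in U251TR replicates 1, 2 and 3 and was listed at 0 in all 3 U251MG libraries. S100A9 stood at 80.9, 44.1 and 71.2 FPKM in the same U251TR libraries and was also listed at 0 in every U251MG library. U251TR replicate 2 was the lowest for both genes, and the ratio of S100A9 to S100A8 was nearly constant, at 3.62, 3.42 and 3.54. In U87TR, S100A8 was at 0.15, 0.14 and 0 FPKM, against 0 in every U87MG library. S100A9 was at 0.11, 0.11 and 0.1 FPKM in U87TR, against 0, 0.18 and 1.18 FPKM in U87MG, so that only U87MG replicate 3 passed 1 FPKM and the groups overlapped.

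Because myeloid cells are the usual source of calprotectin, their markers were examined in the same libraries. The 8 of 10 myeloid markers found in the table summed to 1.01 to 1.25 FPKM in U251TR and to 0.89 to 1.24 FPKM in U251MG. None of them reached 1 FPKM in every library of either U251 line, and PTPRC, the pan-leukocyte gene, was at 0.01 FPKM in each U251TR library. In U87TR the same markers summed to 14.7 to 18 FPKM, against 11.8 to 17.1 FPKM in U87MG, nearly all of it from CSF1R, the receptor of colony-stimulating factor 1, which had 14.4 FPKM on average in U87TR and 12.7 FPKM in U87MG. Keratinocytes also make S100A8 and S100A9. Of 6 keratinocyte markers in the table, KRT1 and DSG3 were listed at 0 in every U251TR and U251MG library, and the list summed to 15.4 to 20.9 FPKM in U251TR, against 59.9 to 67.4 FPKM in U251MG, where FLG accounted for most of it. In U87TR that list summed to 18.1 to 21 FPKM, against 14.3 to 19.45 FPKM in U87MG. In bulk RNA, more cells that express a gene and more RNA per cell cannot be told apart.

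The promoter windows of the calprotectin genes are shown with those of S100A4 and S100A10, whose differences ran in opposite directions in the U251 and U87 pairs. They are RefSeq windows of GRCh38.p14, from 250 bases before to 50 bases after an annotated start, written 5′ to 3′ on the gene's strand; all 10 genes had at least 1 window. For S100A8, which has 3 windows, the one with TATAAA is shown, and another held 2 overlapping matches to the NF-kB letters. The letters searched on both strands were TGANTCA (AP-1), TTGCNNAA (C/EBP), TGACNNNGC (antioxidant response), GGG and CC with 5 bases of any kind between them (NF-kB), and GAAA repeated after 2 bases of any kind (interferon response). To these TATAAA, the TATA box, was added after the sequences were seen, on the gene's strand and starting 20 to 40 bases before the start. Capitals mark every match, and overlapping matches run together.
S100A8, chr1:153391024-153391323, minus strand: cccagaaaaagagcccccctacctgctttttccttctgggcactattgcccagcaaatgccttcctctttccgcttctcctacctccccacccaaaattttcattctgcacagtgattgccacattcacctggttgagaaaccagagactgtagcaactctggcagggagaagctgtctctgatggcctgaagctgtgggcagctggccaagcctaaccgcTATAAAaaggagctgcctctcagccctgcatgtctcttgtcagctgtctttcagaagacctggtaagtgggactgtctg
S100A9, chr1:153357604-153357903, plus strand: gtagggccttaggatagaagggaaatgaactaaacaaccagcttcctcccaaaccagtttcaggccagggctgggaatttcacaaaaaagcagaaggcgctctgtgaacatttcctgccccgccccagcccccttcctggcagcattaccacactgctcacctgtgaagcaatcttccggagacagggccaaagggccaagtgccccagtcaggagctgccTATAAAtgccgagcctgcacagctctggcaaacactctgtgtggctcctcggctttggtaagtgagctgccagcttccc
S100A4, chr1:153545757-153546056, minus strand: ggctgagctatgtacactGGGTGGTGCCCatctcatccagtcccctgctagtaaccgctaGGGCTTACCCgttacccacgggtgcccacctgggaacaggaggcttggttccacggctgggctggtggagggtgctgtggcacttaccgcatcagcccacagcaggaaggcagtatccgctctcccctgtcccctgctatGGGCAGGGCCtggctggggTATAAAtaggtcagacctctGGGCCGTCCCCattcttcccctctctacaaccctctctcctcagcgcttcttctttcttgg
S100A10, chr1:151993810-151994109, minus strand: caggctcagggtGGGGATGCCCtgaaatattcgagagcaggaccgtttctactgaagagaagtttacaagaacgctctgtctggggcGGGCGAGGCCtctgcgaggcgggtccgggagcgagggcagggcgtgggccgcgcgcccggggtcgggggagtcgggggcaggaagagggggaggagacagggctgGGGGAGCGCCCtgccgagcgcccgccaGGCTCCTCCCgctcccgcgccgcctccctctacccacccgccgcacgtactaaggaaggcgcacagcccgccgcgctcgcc

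In the windows of S100A8 and S100A9 the capitals are the TATA box alone, which begins 29 bases before the start in both. Letters of the TATA box at that distance were found in 4 of the 10 genes (S100A4, S100A8, S100A9 and S100A13) and in 2.3% of all 35116 windows of the table. These shares differ in unit, since a gene was counted if any of its windows matched. S100A8 and S100A13 have 3 windows each, S100A2 and S100A16 have 2 each, and the others have 1. S100A4 had its TATA box 31 bases before the start and 6 overlapping or separate matches to the NF-kB letters, and S100A10 had 5 such matches and no TATA box. Those NF-kB letters are loose and occur in 58.7% of all windows. A match to the AP-1 letters, held by 7.71% of all windows, was found in S100A2 and S100A3. A match to the C/EBP letters (10.5% of all windows) was found in S100A11, and matches to the antioxidant response letters (13.3%) in S100A16 and in another start's window of S100A13. None of the windows of the 10 genes held the interferon response letters, which occur in 3.57% of all windows. These are matches of letters, and binding was not measured.

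Among the genes with intracellular roles, S100A4 showed the widest opposition between the resistant lines. Its product binds non-muscle myosin and is known from invasive tumour cells. It had 20.6, 19.7 and 19.2 FPKM in U251TR, against 71.3, 180.5 and 72.2 FPKM in U251MG, a log2 fold change of -2.24 (SE 0.28). U251MG replicate 2 was far above the other parental libraries, and without it the log2 fold change was -1.81. The U87TR libraries had 26.8, 22.5 and 27.5 FPKM, against 8.82, 8.39 and 11.1 FPKM in U87MG, a log2 fold change of 1.35 (SE 0.28). The resistant lines thus stood close to each other (19.2 to 20.6 FPKM in U251TR and 22.5 to 27.5 FPKM in U87TR), while their parents stood far apart, and none of these 4 groups overlapped.

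S100A10 showed the same opposition at a higher level. It had 149.6, 167.7 and 168.6 FPKM in U251TR, against 344.5, 351.2 and 353.3 FPKM in U251MG, a log2 fold change of -1.11 (SE 0.17). The U87TR libraries had 1464, 1374 and 1512 FPKM, against 530.9, 566.7 and 947.4 FPKM in U87MG, a log2 fold change of 1.14 (SE 0.17). U87MG replicate 3 lay between the other parental libraries and U87TR, and without it the log2 fold change was 1.4. Here the resistant lines were the extremes, with U87TR at 1450 ± 69.9 and U251TR at 162 ± 10.7 FPKM (SD, n = 3 each), and the parents lay between them.

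ANXA2, whose product is the partner of S100A10, was not on the list and was tested. It had 1602, 1659 and 1819 FPKM in U251TR, against 1497, 1588 and 1474 FPKM in U251MG (log2 scale 0.15, SE 0.09, adjusted p = 0.148), with no overlap. Its size depended on the scaling. It passed in limma after rescaling to TPM (0.27, adjusted p = 0.012) and after quantile normalization (0.61, adjusted p = 2.93e-05). With median-of-ratios scaling it was 0.02 (adjusted p = 0.875). The gene rose in U87TR to 2262, 2123 and 2218 FPKM, against 1354, 1353 and 1655 FPKM in U87MG (0.6, SE 0.09, adjusted p = 0.000262). The ratio of S100A10 to ANXA2 within a library does not change when a library is scaled by 1 factor, though quantile normalization can change it. In FPKM it was 0.0934, 0.101 and 0.0927 in U251TR, against 0.23, 0.221 and 0.24 in U251MG. It was 0.647, 0.647 and 0.682 in U87TR, against 0.392, 0.419 and 0.572 in U87MG. ANXA2 was the more abundant of the pair per length in all 12 libraries, and the groups did not overlap in either pair of lines.

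**Figure D2:**
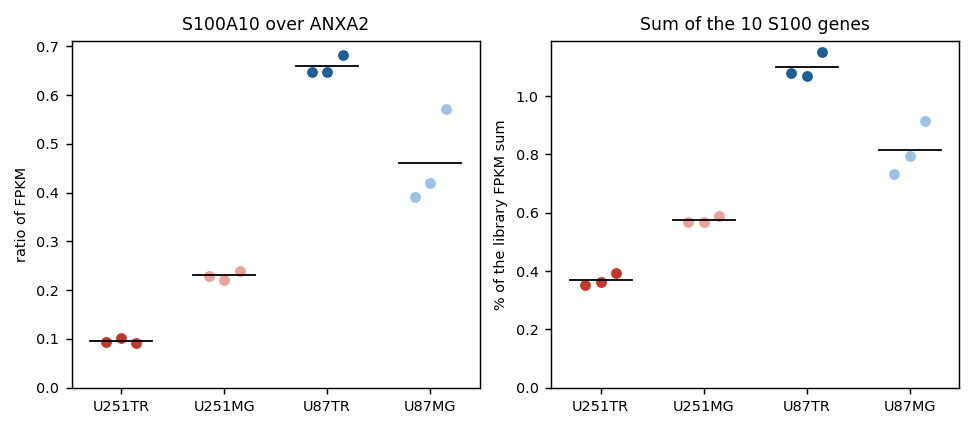
Left, FPKM of S100A10 divided by that of ANXA2; right, summed FPKM of the 10 S100 genes as a percentage of the library's FPKM sum, for each of 3 libraries (points, with their mean as a line). Both quantities are lower in U251TR (ratio 0.0927 to 0.101) than in U251MG (0.221 to 0.24) and higher in U87TR (0.647 to 0.682) than in U87MG (0.392 to 0.572).

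S100A2, a nuclear member known to be lost or gained in different carcinomas, marked the U251 lines. It had 314, 417.5 and 450.7 FPKM in U251TR, against 688.9, 701.4 and 722.7 FPKM in U251MG, a log2 fold change of -0.85 (SE 0.14). Its U87TR values were 30.6, 33.7 and 36.1 FPKM, against 11.8, 14.8 and 17.2 FPKM in U87MG, a log2 fold change of 1.15 (SE 0.14). Its 4 groups did not overlap at any step of the order U251MG, U251TR, U87TR, U87MG. S100A3, a cysteine-rich member abundant in hair cuticle, was higher in the U87 lines than in the U251 lines. It had 4.27, 5.96 and 6.38 FPKM in U251TR, against 6.29, 10 and 6.34 FPKM in U251MG, which overlapped. Its U87TR values were 79.8, 73.9 and 78.4 FPKM, against 31.4, 32.5 and 46.9 FPKM in U87MG, a log2 fold change of 1.07 (SE 0.19). S100A2 and S100A3 lie next to each other on chromosome 1, and the ratio of S100A2 to S100A3 was 70.1 to 73.5 in U251TR and 69.9 to 114 in U251MG, but 0.383 to 0.46 in U87TR and 0.367 to 0.457 in U87MG.

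S100A6, also called calcyclin, is tied to proliferation and binds the calcyclin-binding protein. It had 958.9, 1041 and 1143 FPKM in U251TR, against 2253, 2256 and 2241 FPKM in U251MG, a log2 fold change of -1.11 (SE 0.09). Quantile normalization gave -0.69. The U87TR libraries held 4161, 4349 and 4796 FPKM, against 3288, 3875 and 4164 FPKM in U87MG, which overlapped (0.24, SE 0.09). Among all genes tested it ranked 80 to 87 in U251TR, 41 in each U251MG library, 15 to 18 in U87TR and 19 to 22 in U87MG. S100A16, a widely expressed member, followed it at a lower level, with 207.3, 197.3 and 233 FPKM in U251TR, against 344.3, 256.5 and 325.8 FPKM in U251MG (log2 fold change -0.53, SE 0.11). Its U87TR values were 420.8, 458.5 and 498.4 FPKM, against 387.4, 398 and 443.1 FPKM in U87MG, which overlapped.

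S100A11 and S100A13 differed by little within either pair of lines. The product of S100A11 binds annexin A1 and takes part in membrane repair. It had 511.2, 524.8 and 574.8 FPKM in U251TR, against 641.8, 503.7 and 624.4 FPKM in U251MG, which overlapped, and the sign of that small difference (-0.13, SE 0.1) turned under quantile normalization (0.02). In U87TR it had 1363, 1354 and 1477 FPKM, against 1030, 1091 and 1201 FPKM in U87MG (log2 fold change 0.34, SE 0.1), which did not overlap. S100A11P2, a pseudogene named for it, was listed at 0 in every U251TR, U251MG and U87TR library. In U87MG the pseudogene was at 0.61, 1.68 and 2.3 FPKM, a small level beside the 1030 to 1201 FPKM of S100A11 there. Whether reads were split between the copies was not tested. S100A13 takes part in the release of FGF1 and interleukin-1 alpha. It was higher in both resistant lines without overlap, with 176, 178.2 and 192.8 FPKM in U251TR, against 127.4, 144.5 and 139.5 FPKM in U251MG (log2 fold change 0.41, SE 0.08). In U87TR it had 184.4, 188 and 208.9 FPKM, against 131.6, 141.3 and 150.7 FPKM in U87MG (0.45, SE 0.08). Its levels in the 2 resistant lines overlapped, as did those in their parents.

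**Figure D3:**
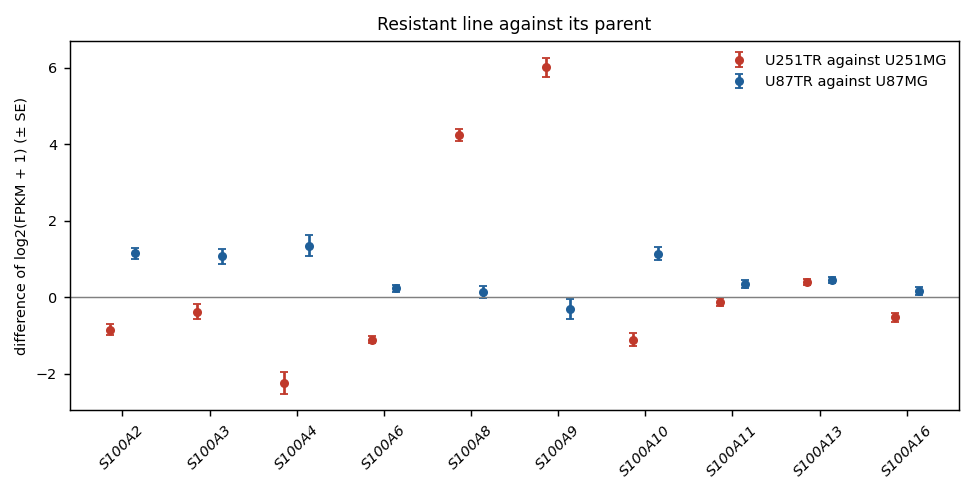
Difference of mean log2(FPKM + 1), resistant line minus its parent, for each S100 gene, with its standard error from the model (bars), for U251TR against U251MG and U87TR against U87MG (n = 3 libraries each). S100A2, S100A4 and S100A10 lie below 0 in U251 and above 0 in U87, S100A13 lies above 0 in both, and for S100A8 and S100A9 in U251TR the value is a difference from a parent listed at 0 and not a fold.

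Counted over the list, the libraries of U251TR and U251MG did not overlap for 8 of 10 genes, 3 higher in U251TR (S100A8, S100A9 and S100A13) and 5 lower (S100A2, S100A4, S100A6, S100A10 and S100A16), against 58.9% of all genes tested. Those of U87TR and U87MG did not overlap for 6 of 10, each higher in U87TR (S100A2, S100A3, S100A4, S100A10, S100A11 and S100A13), against 46.6% of all genes. The median log2 fold change of the list was -0.45 in U251TR and 0.4 in U87TR, with medians over all genes of 0.1 and -0.05. Scaling moved the median of all genes in the U251 comparison to -0.01 under quantile normalization, where that of the list was -0.55, and to 0.2 under TPM scaling, where that of the list was -0.35. Since these values were in view when the list was made, nothing is read from the counts.

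The U251TR change minus the U87TR change is given as a description, on the log2 scale. It includes the U87TR libraries, whose separate run of code numbers cannot be told apart from resistance in U87. It was -3.6 (SE 0.39) for S100A4, -2.25 (SE 0.24) for S100A10, -2.01 (SE 0.2) for S100A2, -1.44 (SE 0.27) for S100A3 and -1.34 (SE 0.13) for S100A6. For S100A16 it was -0.69 (SE 0.16), for S100A11 -0.47 (SE 0.14) and for S100A13 -0.04 (SE 0.11). S100A9 and S100A8, which passed the filter only through U251TR, went the other way, at 6.32 (SE 0.37) and 4.12 (SE 0.23). Over all genes tested this difference was called for 47.6%, higher for 32.1% and lower for 15.4%.

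U87MG had more S100A3, S100A6, S100A10, S100A11 and S100A16 than U251MG and less S100A2 and S100A4, all without overlap. These 7 of 10 are close to the 72.3% of all genes whose libraries did not overlap between the parents, where 32.2% were called higher in U87MG and 40.1% lower. S100A2 averaged 14.6 ± 2.72 FPKM in U87MG and 704.3 ± 17.1 FPKM in U251MG (SD, n = 3 each), a log2 fold change of -5.51 (SE 0.14). S100A3 averaged 36.9 ± 8.63 FPKM in U87MG and 7.56 ± 2.15 FPKM in U251MG (SD, n = 3 each), a log2 fold change of 2.15 (SE 0.19). For S100A10 the parental difference of 0.91 (SE 0.17) fell to 0.65 without U87MG replicate 3. S100A13 averaged 141.2 ± 9.54 FPKM in U87MG and 137.1 ± 8.81 FPKM in U251MG (SD, n = 3 each), which overlapped.

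S100A6 led in every line, and the order of the other levels differed mainly between the U87 and the U251 lines. In U87TR it ran S100A6, S100A10, S100A11, S100A16, S100A13, S100A3, S100A2, S100A4, S100A9 and S100A8, with S100A10 and S100A11 overlapping, and S100A9 and S100A8 both near 0. U87MG had S100A11 above S100A10 and otherwise the same order. In U251TR the order was S100A6, S100A11, S100A2, S100A16, S100A13, S100A10, S100A9, S100A4, S100A8 and S100A3, with only S100A4 and S100A8 overlapping. In U251MG S100A2 came directly after S100A6, S100A10 stood above S100A16 and S100A13 rather than below them, and S100A13 and S100A4 overlapped.

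The table held further S100 genes, which were tested where they passed the filter. Of 11 related S100 genes looked for, 7 were in the table and 3 passed the filter. S100B, a gene of astrocytes, fell in U251TR to 2.31, 1.3 and 2.07 FPKM, against 9.64, 11.2 and 8.72 FPKM in U251MG (log2 fold change -1.92, SE 0.14, adjusted p = 3.46e-07). GFAP moved the other way in the same libraries, to 391.9, 381.4 and 415.4 FPKM in U251TR, against 20.3, 29.9 and 18.3 FPKM in U251MG (4.09, SE 0.23, adjusted p = 3.58e-08). S100B was at 0, 0.05 and 0.1 FPKM in U87TR and listed at 0 in every U87MG library. S100A5 and S100A1 passed the filter only through U87TR, so that their difference there is given as values. S100A5 was at 1.17, 1.23 and 1.13 FPKM in U87TR, against 0, 0 and 0.14 FPKM in U87MG, and at 0 to 0.11 FPKM in U251TR, against 0.12 to 0.5 FPKM in U251MG. S100A1 was at 1.53, 1.18 and 1.9 FPKM in U87TR, against 0.71, 0.76 and 0.7 FPKM in U87MG. S100A7, S100A14 and S100P stayed under 1 FPKM in all 12 libraries. S100Z, which did not pass the filter, was at 0.44, 0.63 and 0.53 FPKM in U251TR, against 1.64, 0.74 and 1.03 FPKM in U251MG. It was at 0.55, 0.25 and 0.47 FPKM in U87TR, against 0.57, 0.23 and 0.62 FPKM in U87MG.

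The S100 genes of chromosome 1 sit in a cluster that also holds the genes of the epidermal differentiation complex. In the order of the RefSeq gene table (GRCh38.p14, used here for order only), 62 protein-coding genes run from S100A10 to S100A13, all 10 listed genes among them. Between them, 2 genes of other families passed the filter. FLG codes for filaggrin, an epidermal protein that carries an S100-like calcium-binding domain at one end. It fell in U251TR to 2.92, 2.82 and 2.84 FPKM, against 48.4, 47 and 50.7 FPKM in U251MG (log2 fold change -3.69, SE 0.11, adjusted p = 2.75e-10). In U87TR it was at 0.43, 0.29 and 0.21 FPKM, against 0.71, 0.53 and 0.3 FPKM in U87MG (adjusted p = 0.218). It was the only 1 of 7 genes of the S100-fused type to pass the filter. SPRR2D, a cornified envelope gene, averaged 1.26 FPKM in U251TR and was listed at 0 in U251MG, and averaged 4.08 FPKM in U87TR and 1.06 FPKM in U87MG.

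Neighbours in the cluster did not share 1 direction. From S100A9 on, the order is S100A9, S100A8, S100A6, S100A5, S100A4, S100A3, S100A2, S100A16, S100A13 and S100A1 among tested genes. In U251TR the libraries lay above those of U251MG for S100A9 and S100A8, below them for S100A6, S100A4, S100A2 and S100A16, and above them for S100A13. In U87TR S100A4, S100A3 and S100A2 were higher without overlap, by 1.35, 1.07 and 1.15 on the log2 scale, and so was S100A13, by 0.45. The libraries of S100A5 and S100A1 also lay above those of U87MG, but these genes passed the filter only through U87TR and had to be higher there. S100A9, S100A8, S100A6 and S100A16 overlapped with U87MG. Of all genes tested, 46.6% did not overlap in the U87 pair. Of 9 tested genes on either side of the cluster, such as THEM4 before S100A10 and CHTOP after S100A1, 4 rose and none fell in U251TR, where 33.6% of all genes tested rose and 19.6% fell (53.2% in all). In U87TR none rose and 1 fell, where 10.6% of all genes rose and 17.2% fell (27.8% in all). Of these 9 TDRKH was the 1 with a log2 fold change above 1, at 1.54 in U251TR.

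**Figure D4:**
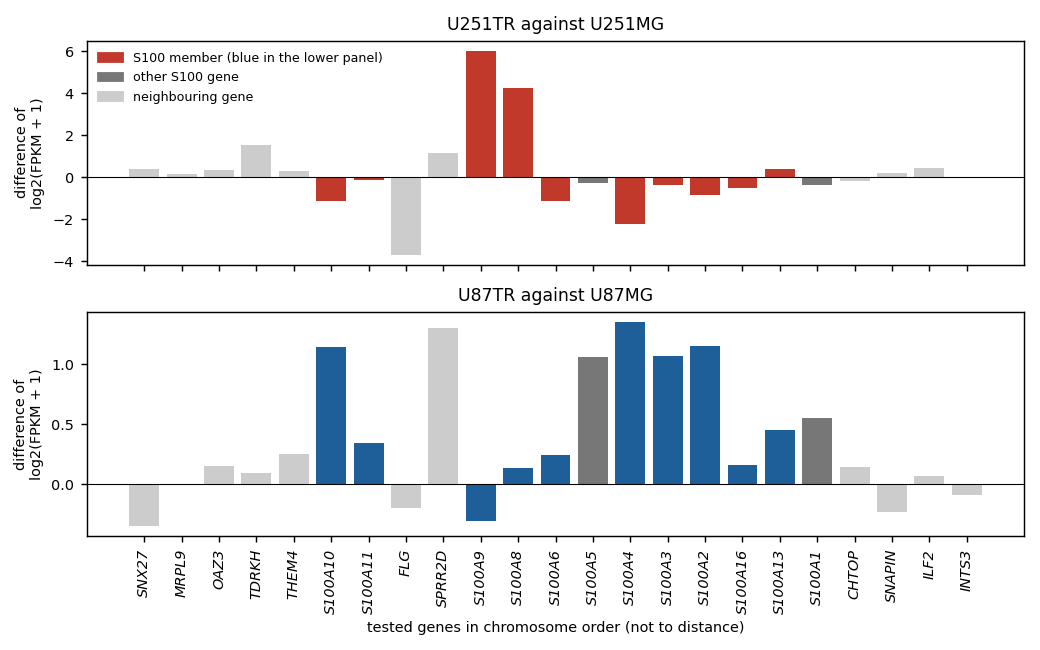
Difference of mean log2(FPKM + 1), resistant line minus its parent, for the tested genes from 5 before S100A10 to 4 past S100A1, in chromosome order and not to distance. The scales of the upper panel (U251TR against U251MG) and the lower panel (U87TR against U87MG) differ. S100A9 and S100A8 stand out upward in U251 beside falls of FLG and S100A4. In U87TR S100A5 to S100A2 are higher, as are S100A10, S100A11, S100A13 and S100A1. Of these, S100A5 and S100A1 passed the filter only through U87TR.

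Extracellular S100 proteins signal through receptors, of which 6 of 8 looked for passed the filter. TLR4, the innate receptor that calprotectin activates, rose in both resistant lines. It had 18.3, 17 and 15.1 FPKM in U251TR, against 4.53, 4.4 and 4.77 FPKM in U251MG (log2 fold change 1.67, SE 0.11, adjusted p = 2.2e-07). In U87TR it had 5.82, 6.1 and 4.77 FPKM, against 0.77, 1.06 and 0.74 FPKM in U87MG (1.82, SE 0.11, adjusted p = 3.02e-07). AGER, the gene of RAGE, fell in U251TR to 1.99, 1.79 and 0.97 FPKM, against 3.71, 3.55 and 3.07 FPKM in U251MG (adjusted p = 0.00175), and did not pass in U87TR (0.05, SE 0.17, adjusted p = 0.877). NPTN, whose product neuroplastin can bind S100A8, rose in U251TR (0.85, SE 0.1, adjusted p = 2.8e-05) but did not pass in U87TR (0.1, SE 0.1, adjusted p = 0.518).

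The adhesion receptors differed by line. ALCAM fell in U251TR to 17.7 ± 3.04 FPKM, against 48.6 ± 8.44 FPKM in U251MG (SD, n = 3 each, log2 fold change -1.41, adjusted p = 5.66e-06 in limma). MCAM fell in U87TR to 42.1 ± 3.34 FPKM, against 60 ± 6.75 FPKM in U87MG (SD, n = 3 each, log2 fold change -0.5, adjusted p = 0.00193 in limma). BSG codes for basigin, a receptor for S100A9. It fell in U251TR (-0.31, SE 0.07, adjusted p = 0.004) and rose in U87TR (0.27, SE 0.07, adjusted p = 0.0165), though the second call was lost without U87TR replicate 3 (adjusted p = 0.0578) or U87MG replicate 1 (adjusted p = 0.0731). Of the 6 receptors tested, 2 rose and 3 fell in U251TR (33.6% and 19.6% of all genes), and 2 rose and 1 fell in U87TR (10.6% and 17.2% of all genes). CD36 stayed at or under 0.12 FPKM and CD69 at or under 0.21 FPKM in all 12 libraries.

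Of 12 annexins, the calcium-dependent membrane proteins that many S100 proteins bind, 9 passed the filter. In U251TR 3 rose and 1 fell, where 33.6% and 19.6% of all genes did, and 5 rose under TPM scaling. In U87TR 5 rose and none fell, where 10.6% and 17.2% of all genes did, and 3 rose without U87TR replicate 3. Of those 5, ANXA9 passed the filter only through U87TR, so that it had to be higher there. ANXA1, the partner of S100A11, moved in opposite directions. It fell in U251TR to 376.1, 402.5 and 343.7 FPKM, against 1278, 1001 and 1399 FPKM in U251MG (log2 fold change -1.7, SE 0.11, adjusted p = 1.46e-07). In U87TR it had 1227, 1307 and 1359 FPKM, against 1002, 1002 and 915.8 FPKM in U87MG (0.41, SE 0.11, adjusted p = 0.0157, and adjusted p = 0.057 without U87TR replicate 3). ANXA6 rose in U251TR to 28.6, 26.6 and 30 FPKM, against 1.9, 4.41 and 1.87 FPKM in U251MG (3.04, SE 0.19, adjusted p = 1.15e-07, and 3.35 without U251MG replicate 2). ANXA8 rose in U87TR to 53.6, 40.6 and 43.3 FPKM, against 1.62, 2.09 and 2.96 FPKM in U87MG (3.87, SE 0.16, adjusted p = 6.76e-09). ANXA7 rose in both, by 0.76 (SE 0.06) in U251TR and 0.52 (SE 0.06) in U87TR. ANXA11, a partner of S100A6, passed in neither line (adjusted p = 0.287 and 0.165).

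**Figure D5:**
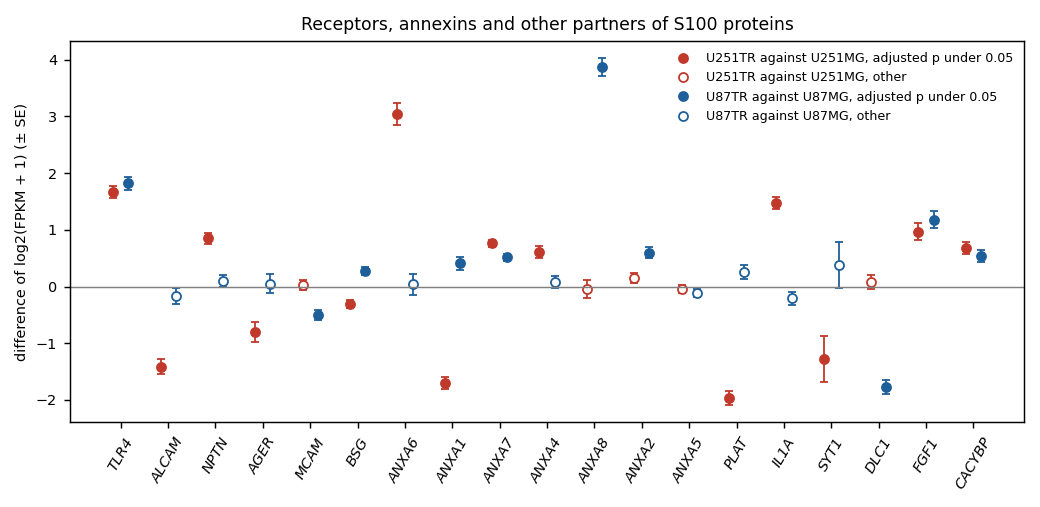
Difference of mean log2(FPKM + 1), resistant line minus its parent, with the standard error from limma (bars), for the named receptors, annexins and other partners of S100 proteins (n = 3 libraries each). Filled points have an adjusted p under 0.05. TLR4 is higher in both resistant lines, ANXA6 in U251TR and ANXA8 in U87TR, and ANXA1 and PLAT are lower in U251TR.

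Among 18 tested partners of other kinds, 10 rose and 4 fell in U251TR, where 33.6% and 19.6% of all genes did. With median-of-ratios scaling 6 rose. In U87TR 5 rose and 3 fell, where 10.6% and 17.2% of all genes did. CACYBP, the binding protein of S100A6, rose in U251TR (0.68, SE 0.11, adjusted p = 0.000294) and in U87TR (0.54, SE 0.11, adjusted p = 0.00354). FGF1, a growth factor released with S100A13, rose in U251TR to 1.04, 0.98 and 1.86 FPKM, against 0.07, 0.29 and 0.12 FPKM in U251MG, and in U87TR to 9.9, 12.1 and 9.87 FPKM, against 3.87, 4.4 and 4.02 FPKM in U87MG. IL1A, the other such cargo, rose in U251TR to 2.18 ± 0.19 FPKM, against 0.147 ± 0.0777 FPKM in U251MG (SD, n = 3 each), and did not pass in U87TR (adjusted p = 0.189 in limma). PLAT, the tissue plasminogen activator that the complex of S100A10 and annexin A2 binds, fell in U251TR to 14.3, 13.8 and 12.9 FPKM, against 55.7, 59.4 and 53.6 FPKM in U251MG (-1.97, SE 0.12, adjusted p = 7e-08). In U87TR it had 8.15, 7.04 and 6.64 FPKM, against 5.43, 5.15 and 7.34 FPKM in U87MG (adjusted p = 0.132).

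MYH9, the myosin heavy chain that S100A4 binds, fell in U251TR (-0.33, SE 0.07, adjusted p = 0.0011) and rose in U87TR (0.25, SE 0.07, adjusted p = 0.0127). DLC1, whose product S100A10 binds, fell in U87TR to 10.3, 10.7 and 8.74 FPKM, against 38.2, 34.7 and 35.9 FPKM in U87MG (-1.77, SE 0.12, adjusted p = 4.73e-07), and was under 0.4 FPKM in every U251TR and U251MG library.

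Of 23 other EF-hand calcium proteins tested, 14 rose and 3 fell in U251TR, where 33.6% and 19.6% of all genes did. Among those that rose, EFHD1 passed the filter only through U251TR, and among those that fell, CALB1 passed only through U251MG. Both directions were thus fixed by the filter. Under TPM scaling, without U251MG replicate 1 or with the 6 libraries alone, 1 fell. In U87TR 3 rose and 3 fell, where 10.6% and 17.2% of all genes did. Without U87MG replicate 1, 1 rose, and those that fell were 1 under quantile normalization and 5 without U251MG replicate 2. Their median log2 fold change was 0.48 in U251TR and 0.04 in U87TR, with medians over all genes of 0.1 and -0.05. The 2 genes with the largest changes code for neuronal calcium buffers. CALB2, the gene of calretinin, rose in U251TR to 26.1, 27.9 and 34.1 FPKM, against 0.02, 0.02 and 0.05 FPKM in U251MG, and in U87TR to 41.8, 40.6 and 44.1 FPKM, against 7.23, 7.91 and 7.54 FPKM in U87MG (log2 fold changes 4.87 and 2.33). CALB1, the gene of calbindin, passed the filter only through U251MG, and had 0.25, 0.03 and 0.11 FPKM in U251TR, against 16.4, 7.55 and 13 FPKM in U251MG. CAPN1, a subunit of the protease calpain, fell in U87TR to 45.9, 46.8 and 42.2 FPKM, against 115, 135.4 and 119.4 FPKM in U87MG (-1.43, SE 0.16, adjusted p = 4.55e-05).

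For each S100 gene whose group means spanned at least 1 on the log2 scale, the genes with the most similar pattern were sought, by the root mean square difference of log2(FPKM + 1) over the 12 libraries after each gene was centred. Closest to S100A8 were HP, the gene of haptoglobin (0.17), and ELN, the gene of elastin (0.18), which averaged 18.9 and 28.9 FPKM in U251TR and under 1 FPKM in the other lines. S100A9 was itself 0.76 away from S100A8, and CADM3, a cell adhesion gene, was 0.33 away from S100A9. The measure also counts how large a gene's differences are, and S100A9 averaged 65.4 FPKM in U251TR, where S100A8 averaged 18.4 FPKM. The 0.76 therefore does not mean that this pair varied apart, since its ratio in U251TR was nearly constant (3.62, 3.42 and 3.54). S100A10 was closest to GAP43, a gene of growing axons (0.13), which averaged 1.72 FPKM in U251TR, 4.09 FPKM in U251MG, 22.3 FPKM in U87TR and 9.31 FPKM in U87MG. S100A4 was closest to FADS2, a fatty acid desaturase gene (0.21), S100A3 to CSF2, the gene of GM-CSF (0.2), and S100A2 to KRT18, the gene of a simple epithelial keratin (0.28). KRT18 averaged 37.9 FPKM in U251TR, 63.8 FPKM in U251MG, 1.33 FPKM in U87TR and 0.547 FPKM in U87MG. Within the list, S100A11 and S100A16 were nearest to each other (0.25), and no other S100 gene came within 1 of S100A2.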

How the data were processed

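RNA from 12 libraries of 4 cell lines was sequenced as 150 bp pairs, per the labels' protocols. STAR 2.5.2b, RSEM 1.2.31 and the build hg19 appear in the submitters' processing notes, while the design text names hg38, so no coordinate was taken from the files. The deposited FPKM values are given per gene symbol to 2 decimals. No header or label states the unit, which was inferred from values that are not whole and from library sums of 695282 to 785754. Counts were not used, so depth and counting error are unknown. Of 31681 rows, 27 whose symbols had become dates were left out.

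Genes with at least 1 FPKM in at least 3 libraries (15449) were fitted with limma 3.58.1 in R 4.3.3: group means of log2(FPKM + 1) over all 12 libraries, variance trend, robust moderation, two-sided, Benjamini-Hochberg over all genes tested. Fold changes are on that scale, which understates those of low genes. The fit was tested on simulated data.

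The 10 genes and the lists of related genes were chosen with earlier results of these data known. From each list, up to 4 called genes per comparison with the largest change were named, with ANXA2. MYH9, ANXA9, ANXA11, CD36 and CD69 were named after their values were seen. BSG and CACYBP were named by the rule for U87TR, and their U251TR values were added after they were seen. Alternatives were 3 other scalings, pseudocounts of 0.1 and 5, a filter at 5 FPKM or none, a replicate block, the 6 libraries compared alone, and each library left out, with the genes tested held fixed where libraries or scaling changed. Protein comparisons were not run. Some genes of the lists are counted but not reported here by name.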

Additional observations from a re-analysis of the deposited data

Results flagged for a closer look

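For S100A2, S100A4 and S100A10, every U251TR library was below every U251MG library and every U87TR library was above every U87MG library. The U251TR change minus the U87TR change was -2.01, -3.6 and -2.25 on the log2 scale. The difference is a description with no test, because these genes were listed with their values known. Here and for the related genes below, it also includes the U87TR libraries with their separate run of code numbers. That run cannot be told apart from resistance in U87.

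Among related genes, 21 are named for the same difference. They were taken from the genes that passed limma's test, at most 4 from each list, and ANXA2 was added. For all but ANXA2, passing was thus fixed by the choice. Counted over the lists, 2 of 6 receptors tested were called higher and 3 lower. Of 9 annexins 3 were higher and 3 lower, of 18 other partners 5 and 3, and of 23 other EF-hand proteins 14 and 2. All 3 other S100 genes and the 1 S100-fused gene tested were lower. Of all genes tested 47.6% passed, 32.1% higher and 15.4% lower. Of the 21 named genes, S100A1, S100A5, CALB1 and EFHD1 passed the filter only through 1 line, so that for them the test is no support. Lower in U251TR relative to U87TR were S100B (-1.99), S100A5 (-1.35), S100A1 (-0.94), FLG (-3.48), the receptors AGER (-0.85), ALCAM (-1.25) and BSG (-0.58), the annexins ANXA8 (-3.92), ANXA1 (-2.11) and ANXA2 (-0.45), and PLAT (-2.22), SYT1 (-1.66) and CALB1 (-3.62). Higher were NPTN (0.75), ANXA6 (3.01), ANXA4 (0.53), DLC1 (1.85), IL1A (1.68), CALB2 (2.54), CAPN1 (1.78) and EFHD1 (1.39). The call for SYT1, a synaptic vesicle gene, was lost without any 1 of 9 libraries (adjusted p from 0.0506 to 0.0832), and U251MG replicate 2 stood at 2.44 FPKM, against 12.3 and 13.4 FPKM in the other parental libraries.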

How the results depend on the processing

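Over all genes, the counts of calls stayed within 1.5 times the reported count under every alternative, at 7262 to 8961 in U251TR and 3013 to 5617 in U87TR with each library left out in turn. Of 996 counts over the lists of related genes, 73 moved by more. Among 830 recomputed differences of the 10 S100 genes, 42 moved by more than the spread between libraries, and no difference past the model's threshold changed sign. The difference of S100A9 between U251TR and U251MG was 9.31 with a pseudocount of 0.1 and 3.78 with one of 5, because U251MG is listed at 0.

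ANXA2 turned sign in the difference between the lines under quantile normalization (0.04) and between the parents with median-of-ratios factors (0.03) and quantile normalization (0). The share of called genes that were higher in U251TR was 63.2%, against 51.3% with median-of-ratios factors, 72.1% under TPM scaling and 49.3% under quantile normalization. In U87TR it was 38.1%, against 49.1%, 46.2% and 48.8%, and for the difference 67.6%, against 52.5%, 72.1% and 51.4%. Correlations of same-numbered libraries ranged from -0.058 to 0.116, so the numbers were not taken to pair them. With the replicate block 8119 genes were called in U251TR and 4094 in U87TR. Causes were not tested.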
